A study of Mus musculus with 8 samples.

Results

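Bone morphogenetic protein (BMP) signalling was examined in the developing mouse lens through 10 genes of the pathway, the ligands Bmp4 and Bmp7, the receptors Bmpr1a, Bmpr1b, Bmpr2 and Acvr1, the signal transducers Smad1, Smad4 and Smad5, and the target gene Id1. They were listed by name, out of 26180 genes with a curated RefSeq transcript. The rule used no measured value, but the list was drawn up with earlier results of these data known. Each locus was the gene body with 50 kb on either side in GRCm38 (mm10). The 10 loci held 274 of the 185271 regions of accessible chromatin in the lens, where a region is a set of peaks from the 4 peak lists that overlapped or lay within 10 bp of each other. The samples were epithelium and fibers microdissected from the lenses of CD1 mice, either from embryos at E14.5 or from newborns at P0.5 and here called embryonic and newborn, with 2 ATAC-seq libraries in each of the 4 groups. CD1 is an outbred strain, and the labels name no allele, agent or sex that differed between groups. Each library was made from several pooled lenses, and the libraries of a group were pooled before peaks were called. The result was 1 peak list per group, with no value for a single library, so no test across replicates could be made.

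BMP ligands are secreted dimers that bind a complex of type I and type II receptor kinases on the cell surface. The activated type I receptor phosphorylates Smad1 and Smad5, which join Smad4, enter the nucleus and bind target genes such as those of the Id family of transcriptional inhibitors. In the eye the pathway is known for its part in inducing the lens and, later, in the elongation of lens fibers. ATAC-seq reads the positions at which a transposase can cut the DNA, and a peak therefore marks accessible chromatin, not transcription. Smad1 and Smad5 are held to bind GC-rich elements such as GGCGCC, and Smad4 the sequence CAGAC.

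The lists held 100003 peaks in embryonic epithelium, 123743 in embryonic fibers, 58592 in newborn epithelium and 62995 in newborn fibers. The strength of a peak was its fold enrichment over background, given as the percent rank, its place from the strongest peak down as a percentage of the length of its list. Low percent ranks are strong peaks, and tied peaks share the best place. Weak peaks fell on few, tied fold values, so a small difference in fold can be a large difference in place. In newborn fibers a fold of 4.17 stood at 48.9% and a fold of 3.71 at 69.2%. Of the peaks, 87.9% in embryonic epithelium, 80.5% in embryonic fibers and 86.7% in newborn epithelium had a q value under 0.001, against 48.9% in newborn fibers. The tissue labels were checked at marker genes. Fiber markers differed clearly at E14.5, where the peaks of the fiber list covered 100% of the body of Mip, the lens water channel, and 100% of Crybb1, a beta-crystallin, while those of the epithelium list covered 27.8% and 3.0%. At P0.5 the coverage of Crybb1 was 47.0% in fibers and 0.908% in epithelium. Each of the 8 fiber genes was higher in fibers at P0.5, but the gap was small at Lim2 (7.73% against 4.56%), Bfsp1 (6.03% against 2.28%) and Bfsp2 (2.89% against 2.71%). Of 8 fiber genes, Dnase2b alone lacked a promoter peak in both fiber lists. Promoters of the epithelial genes Foxe3, Cdh1 and Pdgfra carried a peak in all 4 lists. By coverage of the gene body Cdh1 was higher in epithelium at E14.5 (9.28% against 5.99%) and P0.5 (3.27% against 0.277%), Foxe3 higher in fibers at E14.5 (79.6% against 67.0%) and in epithelium at P0.5 (67.3% against 56.9%), and Pdgfra higher in fibers at both stages (14.8% against 12.5% and 5.76% against 4.33%), so the epithelial genes did not separate the tissues in 1 direction. Of 7 markers of vessel, blood, retina, pigment and connective tissue cells, 4 had a promoter peak in embryonic epithelium, 5 in embryonic fibers, 3 in newborn epithelium and 2 in newborn fibers, the strongest at 13.1% (Col1a1, embryonic fibers), with none in any list at Ptprc and Tyr. The part of such cells in the results was not tested.

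Bmp7 stood at one end of the pathway and the receptor genes Bmpr1a and Bmpr1b at the other when the tissues were set side by side at E14.5. The Bmp7 locus had 53 peaks in embryonic epithelium and 28 in embryonic fibers, while the Bmpr1a locus had 24 and 41. Over the 9891 protein-coding genes with at least 20 E14.5 peaks in their locus, the median share of those peaks that came from the fiber list was 53.3%, with the 5th percentile at 40.9% and the 95th at 70.6%. The fiber share was 34.6% at Bmp7, and 0.586% of the genes had a lower one. It was 63.1% at Bmpr1a and 65% at Bmpr1b, where 83.4% and 87.0% of the genes had a lower share. Smad4, Acvr1 and Smad1 lay at 61.1%, 60% and 54.2%, and Bmp4 and Id1 at 50% and 49.1%. Bmp7 was thus the only one of the 8 pathway loci with at least 20 E14.5 peaks that lay outside the range between the 5th and the 95th percentile.

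**Figure D1:**
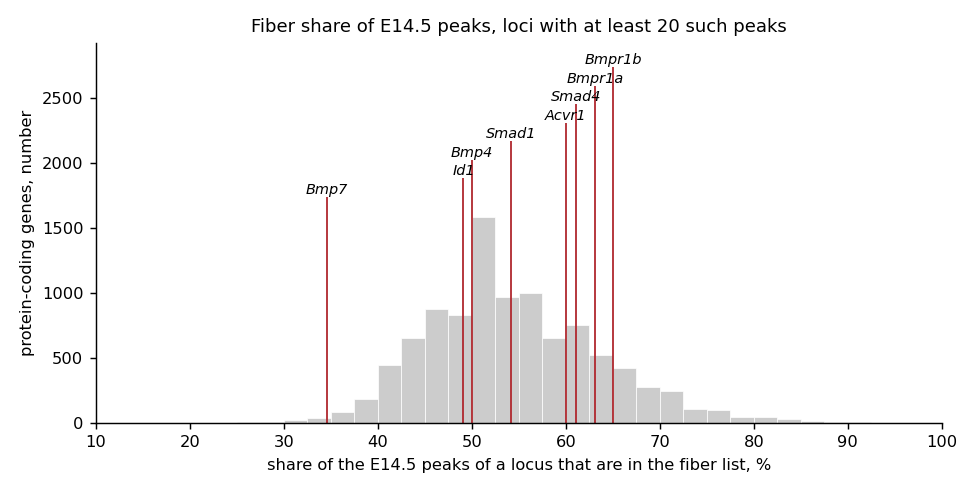
Number of protein-coding genes (y axis) by the percentage of the E14.5 peaks of a locus that belong to the fiber list (x axis, bins of 2.5 points), for loci with at least 20 such peaks. Red lines mark the 8 BMP pathway loci with that many, and Bmp7 at 34.6% stands left of the others, which lie between 49.1% and 65%.

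Bmp7 encodes a secreted ligand and lies on the minus strand of chr2:172868012-172940321. Its locus was the most peak-dense of the 10 in embryonic epithelium, with 30.8 peaks per 100 kb against a median of 5.65 over 21000 protein-coding genes. The density was 16.2 in embryonic fibers, 16.2 in newborn epithelium and 15.1 in newborn fibers, above the median gene in each list (7.06, 3.57 and 3.56). Of the 58 Bmp7 regions called at E14.5, 31 were in the epithelium list alone (53.4%, beside 19.7% of all regions), 20 in both and 7 in the fiber list alone (12.1%, beside 40.1%). The regions of epithelium alone were mostly weak, with a median percent rank of 68.5%, the same as over all regions of that kind, and the best at 30.5%. Of those 31 regions, 22 (71.0%) had a q value under 0.001, beside 74.1% of all regions of embryonic epithelium alone. With equal numbers of peaks per list, a comparison added after the data had been seen, 14 of 22 regions were in the epithelium list alone (63.6%, beside 20.6% of all regions) and 0 in the fiber list alone (beside 24.8%). At P0.5 the locus had 13 regions in epithelium alone, 8 in both and 15 in fibers alone, or 36.1% and 41.7% in 1 tissue, near the 35.2% and 39.7% of all regions. A q value under 0.001 was reached by 11 of the 13 (84.6%) and by 5 of the 15 (33.3%), beside 81.3% and 28.7% of all regions of the same kinds.

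The strongest Bmp7 regions were open in both tissues at both stages. The region at the start site ranked at 9.01% in embryonic epithelium, 11.4% in embryonic fibers, 23.6% in newborn epithelium and 15.7% in newborn fibers. A region in the first part of the gene body, an intronic position 10.1 kb downstream of the start site, ranked at 10.2%, 9.45%, 17.2% and 15.7% in the same order. It was therefore as strong as the start site, or nearly so, in every list. The next region, 109.0 kb downstream of the start site and beyond the end of the gene, ranked at 13.8%, 26.1%, 42.9% and 26.4%. Its neighbour 108.4 kb downstream ranked at 15.6%, 18% and 58.5% and was absent from newborn fibers.

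Regions that followed the tissue at both stages, with a q value under 0.001 in each, were few at Bmp7. A region 51 kb into the gene was called in embryonic (30.5%) and newborn (47.1%) epithelium alone, and so was one 77.3 kb downstream of the start site, past the end of the gene (55.5% and 47.1%). A region 1.62 kb upstream of the start site was called in fibers alone, at 71.6% in embryonic and 26.4% in newborn fibers. A pair of short sequences shows these opposite cases within 1 gene, on the strand of Bmp7 in GRCm38, as 200 bases at the summit of the strongest peak. Capitals mark, on either strand, the GC-rich Smad motif GGCGCC with its variant GGAGCC, the Smad4 motif CAGAC, the Tead motif GGAATG and the Maf motif TGCTGA.
Bmp7 intron, epithelium at both stages (chr2:172889235-172889434, minus strand): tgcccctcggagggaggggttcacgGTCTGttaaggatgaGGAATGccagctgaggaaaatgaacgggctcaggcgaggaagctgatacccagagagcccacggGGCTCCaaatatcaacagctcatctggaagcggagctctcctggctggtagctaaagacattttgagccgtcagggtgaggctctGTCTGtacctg
Bmp7 upstream, fibers at both stages (chr2:172941844-172942043, minus strand): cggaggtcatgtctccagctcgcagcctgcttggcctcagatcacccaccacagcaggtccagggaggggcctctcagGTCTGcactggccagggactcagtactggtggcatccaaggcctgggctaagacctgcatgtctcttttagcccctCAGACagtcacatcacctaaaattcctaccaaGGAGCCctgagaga
The intronic sequence held 2 CAGAC matches, a GGAATG and a GGAGCC, and the upstream sequence 2 CAGAC matches and a GGAGCC.

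Bmp4, the other ligand, lies on the minus strand of chr14:46383525-46390669 and had a modest locus, with 10 peaks in each E14.5 list, 8 in newborn epithelium and 4 in newborn fibers. Its strongest promoter peak held the lowest place among those of the 10 genes in every list, apart from newborn fibers, where Bmpr1b had none. The peak at the start site itself was found in epithelium alone, at 68.5% in E14.5 and 75.7% in P0.5, and was missing from both fiber lists. The stronger peak within 2 kb lay 1.80 kb into the gene, in an intron, and was present in all 4 lists, at 20.9% in embryonic epithelium, 25.2% in embryonic fibers, 42.9% in newborn epithelium and 48.9% in newborn fibers. The widest region, intronic and 3.23 kb into the gene, ranked at 30.5%, 42.8%, 21.5% and 34.7%. Both of these intronic regions also lie within 2 kb of the start site of Gm15222, so neither can be assigned to Bmp4 alone. A region 40.6 kb downstream of the start site was strong in epithelium at E14.5 (20.2%) and P0.5 (27.9%), weak in embryonic fibers (64.1%) and absent from newborn fibers. A region 47.1 kb downstream was called at E14.5 alone, at 30.5% in epithelium and 49.3% in fibers, and one 27.9 kb upstream in embryonic epithelium alone, at 46.8%. Of the Bmp4 regions called by both E14.5 lists, 6 of 7 held a higher place in epithelium, beside 34.7% of all shared regions.

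**Figure D2:**
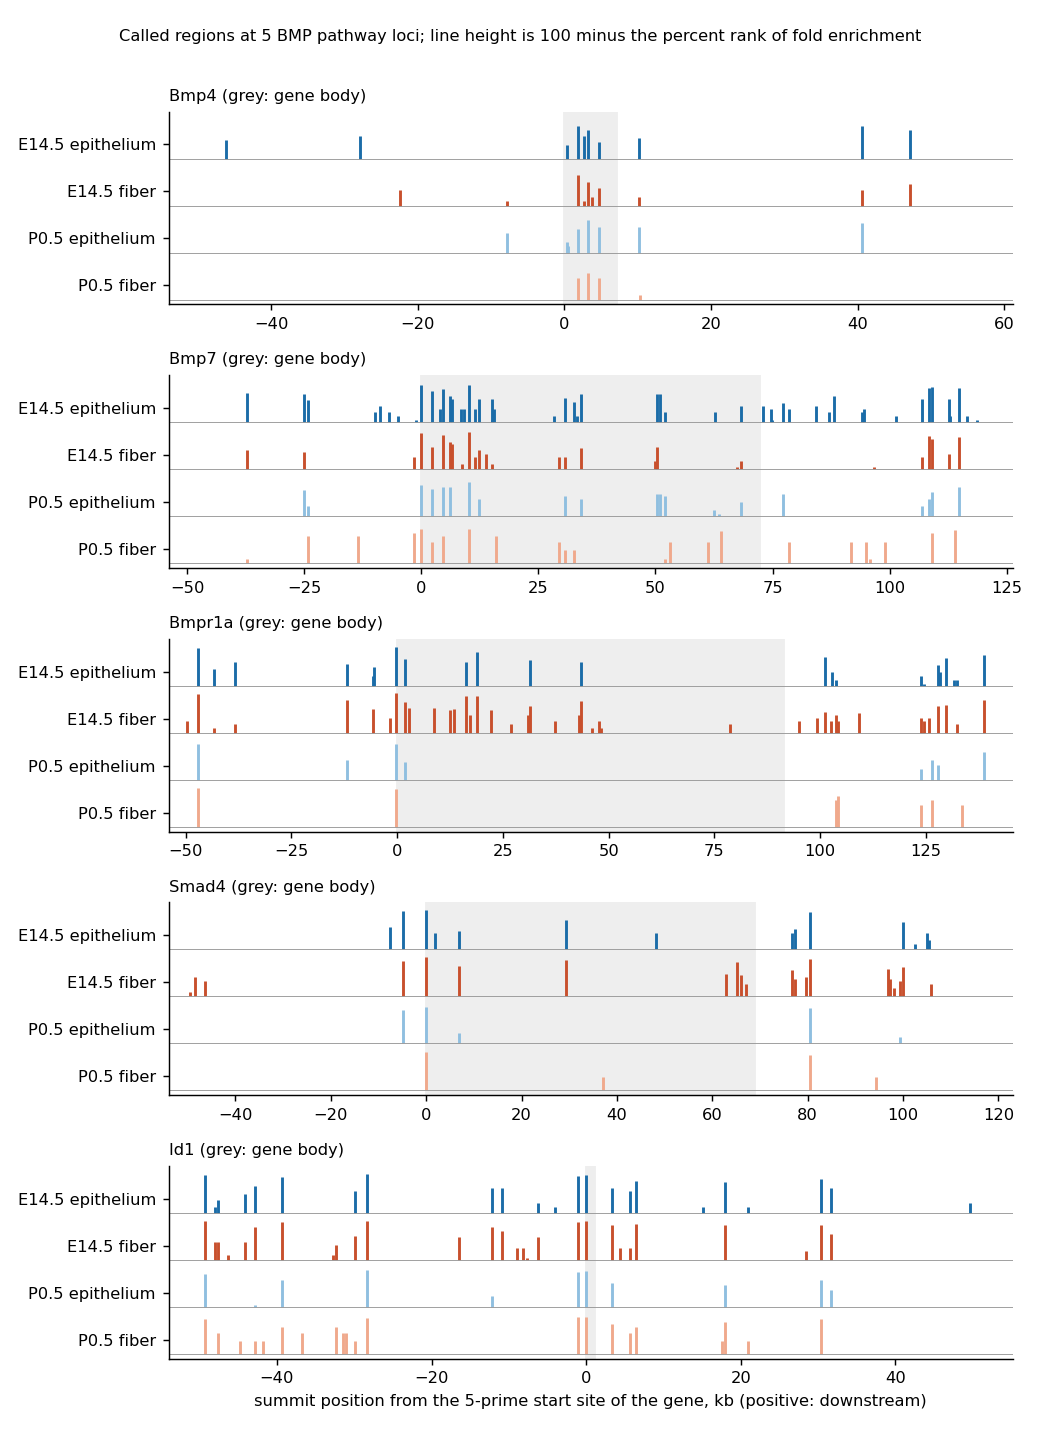
Called regions at Bmp4, Bmp7, Bmpr1a, Smad4 and Id1 in the 4 peak lists, by the distance of the summit from the start site in kb (x axis); taller lines are stronger peaks (100 minus the percent rank) and grey marks the gene body. The Bmp7 body is densest in embryonic epithelium, the Bmpr1a body in embryonic fibers, and the Id1 flanks hold more regions in newborn fibers than in newborn epithelium.

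Among the receptors, Bmpr1a, a type I receptor on the minus strand of chr14:34411068-34502546, was the most peak-rich. It had 24 peaks in embryonic epithelium, 41 in embryonic fibers, 9 in newborn epithelium and 7 in newborn fibers. Its start site was strong in every list, at 4.88%, 3.63%, 12.3% and 8.49%. Of 45 regions called at E14.5, 22 were in the fiber list alone and 4 in the epithelium list alone. The share in fibers alone was 48.9% (95% Wilson interval 35.0 to 63.0, counting error only), an interval that holds the 40.1% of all regions. The share in epithelium alone was 8.89% (interval 3.51 to 20.7), which holds the 19.7% of all regions. The 22 had a median percent rank of 64.1%, the same as over all regions of embryonic fibers alone. Of the 22, 1 (4.55%) was called again in newborn fibers, beside 8.12% of all such regions. With equal numbers of peaks the counts were 6 of 20 in fibers alone (30%) and 3 in epithelium alone (15%), beside 24.8% and 20.6% of all regions. The strongest region outside promoters lay 47.0 kb upstream and was shared by all lists, at 8.51%, 6.0%, 13.3% and 5.69%.

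Both of the next strongest Bmpr1a regions were intronic and belonged to E14.5. The region 16.2 kb into the gene ranked at 11.1% in embryonic fibers and 43.5% in embryonic epithelium, and the region 18.9 kb into the gene at 11.2% and 16.8%. Neither was called at P0.5 in either tissue. Of the 19 Bmpr1a regions called by both E14.5 lists, 16 held a higher place in fibers, as did 65.3% of all shared regions. The sequences at these introns are shown because they carried the strongest peaks of the locus that were lost from both P0.5 lists. Capitals mark the same motifs as at Bmp7.
Bmpr1a intron, embryonic fibers above epithelium (chr14:34486281-34486480, minus strand): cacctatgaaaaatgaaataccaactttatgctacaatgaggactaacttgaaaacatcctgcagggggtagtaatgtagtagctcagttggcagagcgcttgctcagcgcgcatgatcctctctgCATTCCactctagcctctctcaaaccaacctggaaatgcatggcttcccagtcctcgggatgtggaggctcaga
Bmpr1a intron, both E14.5 tissues (chr14:34483527-34483726, minus strand): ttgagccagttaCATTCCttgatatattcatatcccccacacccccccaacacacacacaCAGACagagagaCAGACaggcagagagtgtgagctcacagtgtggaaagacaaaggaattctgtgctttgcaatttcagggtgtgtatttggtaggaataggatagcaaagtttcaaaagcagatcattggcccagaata
Each held 1 GGAATG match, written CATTCC on the strand shown, and the second also held 2 CAGAC matches next to a run of CA repeats.

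Bmpr1b, another type I receptor, lies on the minus strand of chr3:141837136-142169425 and had the sparsest locus, with 1.62 peaks per 100 kb in embryonic epithelium, 3.01 in embryonic fibers, 1.62 in newborn epithelium and 0.463 in newborn fibers. Its distal start site ranked at 9.44% in embryonic epithelium, 12.1% in embryonic fibers and 13.3% in newborn epithelium. No promoter peak was called in newborn fibers, the only missing promoter call of the 10 genes. The 2 peaks of the locus in that list lay elsewhere, 1 outside the gene at 34.7% and 1 in the intron 184.6 kb into the gene at 91.3%, the lowest place in the list. That intron ranked at 23.3% in embryonic epithelium and 29.6% in embryonic fibers. A region in an exon 306.4 kb into the gene ranked at 18.3% and 29.6% in the same lists and was not called at P0.5. The widest region, 349.9 kb downstream of the distal start site and past the end of the gene, ranked at 23.3%, 29.6% and 33.9% and was absent from newborn fibers.

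Bmpr2, the type II receptor for BMPs, on the plus strand of chr1:59764279-59878081, showed a strong start site in every list, at 3.17% in embryonic epithelium, 4.16% in embryonic fibers, 5.37% in newborn epithelium and 5.69% in newborn fibers. Its 3 strongest regions outside promoters were called in both tissues at E14.5. They lay 24.9 kb into the gene (35.9% in epithelium and 16.2% in fibers), 69.7 kb into the gene (40.6% and 20.7%) and 119.6 kb downstream of the start site (29.0% and 34.2%). At P0.5 only the second was called, in epithelium, at 75.7%. The strongest region of its locus belonged to the start site of Fam117b, at 0.560%, 0.788%, 0.50% and 1.69%. Acvr1, a type I receptor on the minus strand of chr2:58446438-58566828, ranked at 5.38%, 5.76%, 5.87% and 7.65% at its start site, a region that also lies within 2 kb of a start site of Upp2. Among the regions common to all lists the same peaks ranked at 26.5%, 34.9%, 16.8% and 23.5%, with newborn epithelium ahead of both embryonic tissues. Its 3 strongest regions outside promoters, all intronic and between 33.1 and 81.9 kb into the gene, were called in every list but newborn fibers. The best of them, 34.4 kb into the gene, ranked at 22.5% in embryonic epithelium, 16.2% in embryonic fibers and 39.5% in newborn epithelium, and the others between 31.0% and 75.7%.

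Smad1, on the minus strand of chr8:79338395-79399428, and Smad5, on the plus strand of chr13:56703010-56742378, encode the transducers that the receptors phosphorylate. The Smad1 start site ranked at 5.89% in embryonic epithelium, 3.18% in embryonic fibers, 5.12% in newborn epithelium and 6.31% in newborn fibers. The Smad5 start site ranked at 6.43%, 2.62%, 10.4% and 4.22%, and was higher in fibers than in epithelium at both stages. Outside promoters the Smad5 locus was poor. Its best region, 69.8 kb downstream of the start site, ranked at 38.0% in embryonic and 69.2% in newborn fibers. The next lay 4.87 kb upstream, at 50.8% in embryonic epithelium and 42.8% in embryonic fibers, and another 31.6 kb upstream, at 48.9% in newborn fibers alone. Smad1 had a region 101.5 kb downstream of its start site at 22.5% in embryonic epithelium, 18% in embryonic fibers and 52.3% in newborn epithelium, near the start site of Mmaa, whose own region ranked at 1.67%, 1.38%, 2.42% and 2.35%. A region 108.9 kb downstream ranked at 30.5% in embryonic epithelium and 28.4% in embryonic fibers, and an intronic one, 7.79 kb into the gene, at 33.9%, 53.3% and, in newborn fibers, 34.7%.

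Smad4, the shared partner of all receptor-activated Smads, lies on the minus strand of chr18:73634790-73703791. It had 14 peaks in embryonic epithelium, 22 in embryonic fibers, 6 in newborn epithelium and 4 in newborn fibers. Its start site, which lies within 2 kb of that of 4930578L24Rik, ranked at 4.75%, 2.71%, 12.3% and 5.11%, again higher in fibers at both stages. A region 4.80 kb upstream went the other way, at 7.05% in embryonic epithelium, 14.6% in embryonic fibers and 18.8% in newborn epithelium, with no call in newborn fibers. A region 80.5 kb downstream of the start site, past the end of the gene, was called in all 4 lists, at 7.91%, 8.77%, 13.9% and 14%. An intronic region 29.4 kb into the gene ranked at 11.5% in embryonic fibers and 29.0% in embryonic epithelium and was not called at P0.5. Of 27 regions called at E14.5, 13 were in fibers alone (48.1%, interval 30.7 to 66.0) and 6 in epithelium alone (22.2%, interval 10.6 to 40.8). Both intervals hold the shares of all regions, 40.1% and 19.7%, and with equal numbers of peaks the counts were 3 (27.3%) and 2 (18.2%) of 11, beside 24.8% and 20.6%. At the strongest promoter peak the same order, higher in fibers within each stage, held for Bmpr1a, Smad4, Smad5 and Id1. For Id1 in newborn fibers that peak was a separate region upstream of the start site. Bmp4, Bmpr2 and Acvr1 had the opposite order at both stages. Bmpr1a, Smad4, Smad5 and Id1 kept their order when places were taken among the 20112 regions common to every list. There they ranked at 24.1%, 23.4%, 31.4% and 33.0% in embryonic epithelium and 22.2%, 16.6%, 16.1% and 25.2% in embryonic fibers. The median promoter over all genes was likewise at a lower percent rank in fibers.

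**Figure D3:**
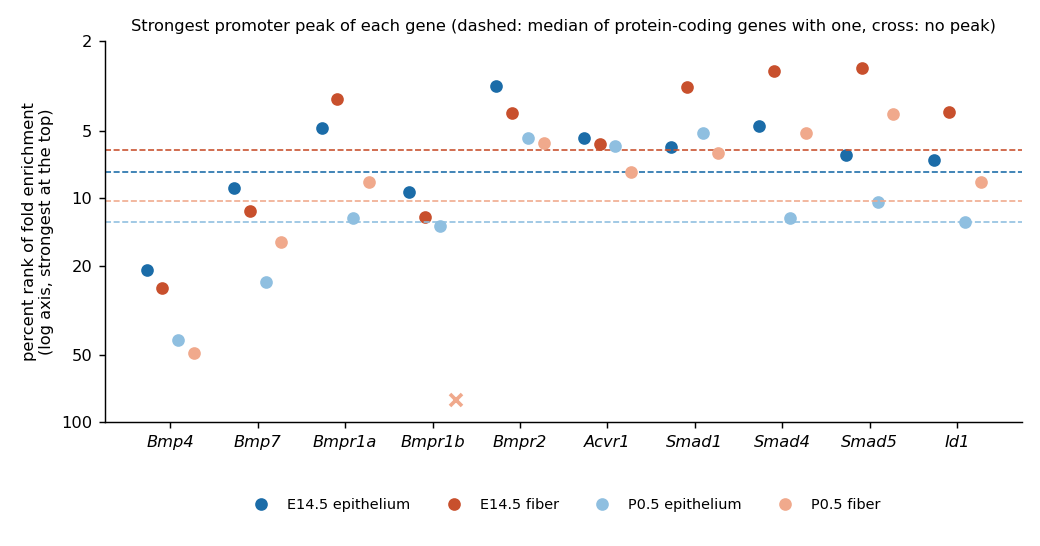
Percent rank of fold enrichment (log axis, strongest at the top) of the strongest peak within 2 kb of a start site for each of the 10 genes, with 1 point per pooled list and dashed lines at the median of protein-coding genes with a promoter peak. Bmp4 lies lowest in every list that called it, and the cross marks the missing Bmpr1b peak in newborn fibers.

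Id1, a helix-loop-helix inhibitor and a direct BMP target, is a short gene on the plus strand of chr2:152736251-152737410 in a densely accessible locus. Its 29 peaks in embryonic epithelium, 28 in embryonic fibers and 26 in newborn fibers stood beside 12 in newborn epithelium, and the P0.5 peaks fell on 21 regions in fibers and 11 in epithelium. At P0.5, 12 of its 23 regions were in fibers alone (52.2%, interval 33.0 to 70.8) and 2 in epithelium alone (8.70%, interval 2.42 to 26.8), beside 39.7% and 35.2% of all regions. The first interval holds the share of all regions and the second lies below it. The 12 were of modest strength, from 34.7% to 69.2%, or from a fold of 4.63 to one of 3.71. Of the 12, 2 (16.7%) had a q value under 0.001, beside 28.7% of all regions of newborn fibers alone, as did both regions of epithelium alone. Held to that q value in both lists, Id1 had 2 of 12 regions in each tissue alone (16.7%), beside 51.1% of all regions in epithelium alone and 18.4% in fibers alone, a threshold that fewer of the newborn fiber peaks pass. With equal numbers of peaks it had 2 (8.33%) in epithelium alone and 13 (54.2%) in fibers alone, beside 37.4% and 37.2%. Both settings were chosen after the data had been seen. All 11 Id1 regions called in epithelium at both stages held a higher place at E14.5, as did 80.4% of all such regions. With equal numbers of peaks per list the median of such shifts over the 10 loci changed sign.

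Accessibility around Id1 fell on 3 regions within 2 kb of the start site. The region at the start site ranked at 6.77% in embryonic epithelium, 4.13% in embryonic fibers, 12.8% in newborn epithelium and 9.32% in newborn fibers. A separate region with its summit 1.09 kb upstream ranked at 10.1%, 7.90%, 13.3% and 8.49%, close to the start site in strength. The widest region of the locus, 2554 bp, began just past the end of the gene, with its summit 3.32 kb downstream of the start site, and ranked at 40.6%, 14.9%, 42.9% and 26.4%, higher in fibers at both stages. Farther out, a region 28.4 kb upstream was about as strong as the promoter, at 5.01%, 5.22%, 8.34% and 12.6%, and one 39.3 kb upstream ranked at 12.1%, 7.48%, 33.9% and 34.7%. The next, 6.40 kb downstream of the start site, ranked at 20.9% in embryonic epithelium, 13.1% in embryonic fibers and 34.7% in newborn fibers.

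The upstream DNA of Id1 is known as the source of a widely used BMP reporter, built on a GC-rich Smad-binding stretch. The summit of the upstream region fell within 10 bp of a GGCGCC, which begins 1099 bp upstream of the start site. Both Id1 summits that held GGCGCC within 2 kb of the start site or just beyond are shown on the plus strand, with the same motifs in capitals.
Id1 upstream (chr2:152735061-152735260, plus strand): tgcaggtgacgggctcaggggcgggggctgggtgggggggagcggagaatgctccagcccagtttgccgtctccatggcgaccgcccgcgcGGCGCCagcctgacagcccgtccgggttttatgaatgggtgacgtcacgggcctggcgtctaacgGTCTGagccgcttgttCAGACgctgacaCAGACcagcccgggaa
Id1 downstream (chr2:152739469-152739668, plus strand): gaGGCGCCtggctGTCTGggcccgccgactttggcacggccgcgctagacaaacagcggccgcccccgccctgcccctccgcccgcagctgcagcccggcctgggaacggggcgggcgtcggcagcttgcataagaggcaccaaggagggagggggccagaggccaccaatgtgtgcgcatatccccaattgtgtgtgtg
The upstream sequence held GGCGCC at bases 92 to 97 and 3 CAGAC matches. The downstream sequence held GGCGCC at bases 3 to 8 followed, after 5 bases, by GTCT, the spacing described for a bipartite site of Smad1 or Smad5 with Smad4. That spaced pair occurred at 1 of the 274 BMP regions (0.365%, 95% Wilson interval 0.0645 to 2.04) and at 43 of all 185271 regions (0.0232%), a share that rests on this 1 match. A match is a description of the letters and not evidence of binding.

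The motifs were counted at the 274 regions and at all regions. In 200 bases at the summit, on both strands, GGCGCC was found in 5.11% of the BMP regions (14, 95% Wilson interval 3.07 to 8.39, counting error only) and 4.0% of all regions, and CAGAC in 44.2% (38.4 to 50.1) and 45.7%. GGAGCC was found in 19% and 20.3%, the Tead motif GGAATG in 13.9% and 13.7%, the Maf motif TGCTGA in 23.7% and 23.1%, the Sox motif ACAAT in 19% and 22.8%, and the Gata motif AGATAA in 7.30% and 6.16%. The intervals of these 7 motifs held the share of all regions, while in 100 bases that of ACAAT lay below it, at 7.66% (5.07 to 11.4) against 12.3%. CAGAC can overlap GTCT of the spaced pair, and GGCGCC reads alike on both strands. At the start sites GGCGCC stood apart from the share of all regions, since 9 of the 25 regions within 2 kb of a start site of the 10 genes held GGCGCC (36%, interval 20.2 to 55.5) against 11.9% of the 30419 regions at start sites of any gene. The median GC content at the summits was 58.5% in both sets. The 9 regions came from Bmp4, Bmpr1a, Bmpr1b, Bmpr2, Acvr1, Smad4, Smad5 and Id1, the last with 2 of its regions. In 1 of these 2 the match lay 3220 bp downstream of the start site. At the start sites the intervals of the other single motifs held the share of all such regions, with GGAGCC at 20% against 28.5% and CAGAC at 44% against 39.8%. In regions away from start sites GGCGCC was found in 1.76%, against 2.44% of all.

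Within 2 kb of a start site, all 10 genes had a peak in embryonic epithelium, embryonic fibers and newborn epithelium, and 9 of 10 in newborn fibers. Over all protein-coding genes the shares were 70.3%, 71.2%, 67.0% and 64.6%. The median percent rank of these promoter peaks was 6.16%, 4.14%, 12.3% and 7.65%, against 7.68%, 6.10%, 12.8% and 10.3% for all protein-coding genes with a promoter peak. Gene bodies of the 10 genes were covered by peaks to a median of 2.40%, 5.41%, 1.54% and 1.34% in the same order of lists, and those of all 19556 protein-coding genes of at least 1 kb to 2.55%, 4.06%, 1.39% and 1.29%.

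Of 22 other genes of the pathway, 21 had a promoter peak in every list, the exception in all 4 being the ligand Bmp5. The pseudoreceptor Bambi, which blunts BMP signalling, had the strongest promoter of that set in both epithelium lists, at 0.650% and 1.34%, and ranked at 1.05% in embryonic fibers and 1.22% in newborn fibers. Id2 reached 0.386% in embryonic fibers, beside 1.04% in embryonic epithelium, 2.11% in newborn epithelium and 1.5% in newborn fibers. The activin receptor gene Acvr2b reached 0.697% in newborn fibers, beside 2.41%, 1.77% and 8.34%. The promoters of the ligands Bmp2, Bmp3 and Bmp6 ranked between 9.10% (Bmp6 in newborn epithelium) and 47.1% (Bmp3 in the same list).

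The first comparison asked how far the tissues shared regions at E14.5. Of 239 BMP regions called in either list, both called 102 (42.7%, interval 36.6 to 49.0), epithelium alone 56 (23.4%) and fibers alone 81 (33.9%). Among all regions the shares in the same order were 40.2%, 19.7% and 40.1%. Bmp7 gave 31 of the 56 regions of epithelium alone. Of the 102 shared regions, 14 stood at least 20 points higher in epithelium and 12 at least 20 points higher in fibers, or 13.7% and 11.8%, beside 7.23% and 15.9% of all shared regions. The median shift, fibers minus epithelium, was -2.29 points (interval -3.91 to 0.207) at the BMP loci and -2.80 over all regions. Its sign at the BMP loci turned to 0.575 with equal numbers of peaks and to 1.07 among regions common to all lists, so no direction can be read from it.

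**Figure D4:**
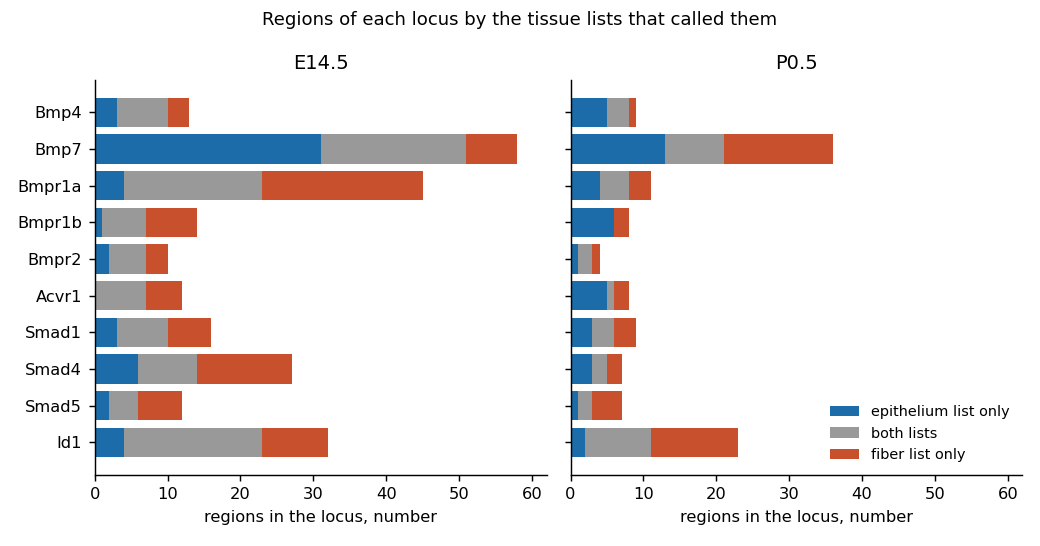
Number of regions at each of the 10 loci (x axis) called in the epithelium list only, in both tissue lists, or in the fiber list only, at E14.5 (left) and P0.5 (right). Bmp7 has 31 regions of epithelium only at E14.5, and Id1 has 12 regions of fibers only at P0.5.

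At P0.5 the tissues shared fewer regions, as they did over all regions, where both lists called 25.1% at P0.5 and 40.2% at E14.5. Of 122 BMP regions, 34 were called in both lists (27.9%, interval 20.7 to 36.4), 43 in epithelium alone (35.2%) and 45 in fibers alone (36.9%), near the 35.2% and 39.7% of all regions. Of the 43, 35 (81.4%) had a q value under 0.001 and 32 (74.4%) had been called in embryonic epithelium as well, beside 81.3% and 65.5% of all regions of newborn epithelium alone. Of the 45 in fibers alone, 11 (24.4%) had such a q value and 13 (28.9%) had been called in embryonic fibers, near the 28.7% and 26.4% of all regions of that kind. Among the 34 shared regions, 1 stood at least 20 points higher in epithelium and 6 in fibers, or 2.94% and 17.6%, beside 8.67% and 16.5% of all shared regions. The median shift was -3.63 points and became 4.50 when peaks were held to a q value under 0.001.

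Between the stages, the BMP loci lost more calls than they gained, as the whole lists did. In epithelium, 171 regions were called at either stage, 64 at both (37.4%, interval 30.5 to 44.9), 94 at E14.5 alone (55.0%) and 13 at P0.5 alone (7.60%), and over all regions the last 2 shares were 49.7% and 11.2%. In fibers, 218 regions were called at either stage, 44 at both (20.2%, interval 15.4 to 26.0), 139 at E14.5 alone (63.8%) and 35 at P0.5 alone (16.1%), beside 62.6% and 17.6%. Bmpr1a, Bmpr1b, Smad4 and Acvr1 had the highest shares of fiber regions called at E14.5 alone, at 83.7%, 85.7%, 82.6% and 78.6%. Id1 and Bmp7 had the lowest, at 40% and 43.9%. The E14.5 lists were longer than the P0.5 lists of the same tissue. Per the paper, more cells were used at P0.5 than at E14.5, and at P0.5 more of epithelium than of fibers. The parts of cell number and sequencing depth in these counts were not tested.

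The places of regions called at both stages gave no direction that held across settings. Of 64 epithelial regions called at both stages, 18 (28.1%) stood at least 20 points higher at E14.5 and 2 (3.12%) at P0.5, beside 26.2% and 2.68% of all regions. The median shift of 10.6 points, P0.5 minus E14.5, compared with 8.73 over all regions and turned to -0.456 with equal numbers of peaks and -1.14 among regions common to all lists. Of 44 fiber regions, 8 (18.2%) stood at least 20 points higher at E14.5 and 7 (15.9%) at P0.5, beside 18.7% and 10.3%. Among weak peaks a shift of 20 points can be a small difference in fold, since places are tied there. The median shift was 1.75 points and turned to -2.66 with equal numbers of peaks and -7.15 among regions common to all lists. The 7 were 2 regions each at Bmp7, Bmpr1a and Id1 and 1 at Smad1, with places from 58.1% to 71.6% in embryonic fibers and from 26.4% to 48.9% in newborn fibers.

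**Figure D5:**
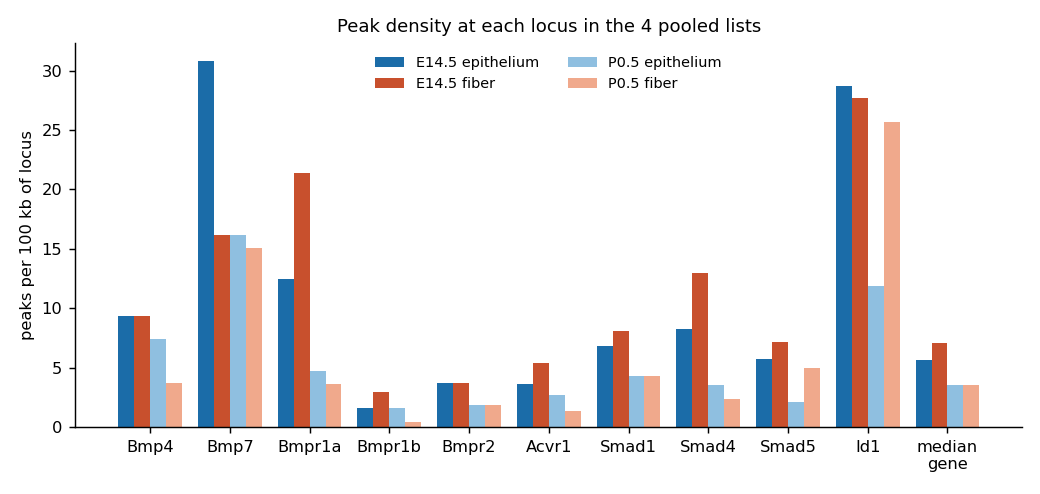
Peaks per 100 kb of locus (y axis) at each of the 10 loci in the 4 pooled lists, with the median over 21000 protein-coding genes at the right. Bmp7 in embryonic epithelium (30.8) is the highest bar, and Id1 has 25.7 in newborn fibers against 11.9 in newborn epithelium.

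Taking the lists together, 150 of the 274 BMP regions (54.7%) were called in 1 list, 55 in 2, 39 in 3 and 30 (10.9%) in all 4, and over all regions 59.5% were called in 1 list and 10.9% in all 4. Regions of 1 tissue at both stages numbered 4 in epithelium (1.46%) and 5 in fibers (1.82%), beside 2.28% and 2.43% of all regions, and 3 of each had a q value under 0.001 in both lists. In fibers those 3 lay at Bmp7, at Bmpr1a (71.6% and 26.4%) and at Id1 (64.1% and 34.7%). Regions of both tissues at E14.5 alone numbered 36 (13.1%, interval 9.64 to 17.7), beside 11.4% of all regions, 11 of them at Bmpr1a. Of the 36, 28 had such q values, with places from 16.8% to 77.7% in epithelium and from 11.1% to 71.6% in fibers. Regions of both tissues at P0.5 alone numbered 1 (0.365%, beside 0.348% of all regions), at the start sites of Mmrn2 and Sncg downstream of Bmpr1a (52.3% in epithelium and 34.7% in fibers). The 30 regions of all lists included the start sites of 8 of the 10 genes, those of Bmp4 and Bmpr1b being the others.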

How the data were processed

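Mice of strain CD1 gave lens epithelium and fibers at E14.5 and P0.5, with 2 ATAC-seq libraries per group. Per the labels the authors trimmed reads with Trim Galore 0.4.1, mapped them to mm10 with Bowtie2 2.3.3.1, handled alignments with SAMtools 1.2 and Picard 2.1.1 and called peaks with MACS2 2.1; their methods add removal of mitochondrial and duplicate reads and a q value of 0.05. The authors deposited 1 narrowPeak list per group, from both libraries pooled, so values carry no replicate error. The fold enrichment in these deposited lists is the ratio of the pileup of reads to a background, and the authors also gave the −log10 p and −log10 q of each peak. At the promoters examined, equal fold values within a list came with equal q values, so the ranks follow the height of the pileup. Fold scales differ between lists, so fold enrichment was used as a rank within its list. Depth per library is not in the lists and was not analysed here.

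The 10 genes, the 22 other pathway genes and the markers were chosen with earlier results of these data known. Loci and start sites came from 45756 curated RefSeq transcripts of GRCm38, and 0 peaks ran past the end of a chromosome. Peaks within 10 bp on 21 chromosomes were merged into regions. A promoter was 2 kb on either side of a start site, and a region belonged to a locus or promoter with an overlap of at least 1 bp. The text gives for each gene its promoter peak, its 3 best-ranked other regions, its widest region and, singly or as counts and ranges, the regions called only in the 2 lists of 1 tissue or of 1 stage with a q value under 0.001 in both. Among the other pathway genes, those without a promoter peak in a list or in the top 1% of a list were named. Other features were named after their values were seen. Intervals are 95% Wilson intervals for shares and order-statistic intervals for medians, and both cover counting error only. No test was made. Alternatives were stricter or equal-sized lists, other merging distances, locus sizes, promoter widths, transcript sets, rankings and motif windows. The lists gave 0 columns that could not be assigned to a group. Steps ran in python 3.11.15 with pandas 2.3.3, numpy 2.4.6, scipy 1.17.1, pysam 0.24.0, samtools 1.23.1 and matplotlib 3.10.9. On simulated lists, merging, promoter calls and coverage came out right at 100% of 4000 sites and 500 genes.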

Additional observations from a re-analysis of the deposited data

How the results depend on the processing

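No paired analysis was possible because the 2 libraries of each group were pooled before peaks were called, and for the same reason no library could be left out. With equal numbers of strongest peaks per list, the BMP loci held 163 regions in place of 274, the share called in both lists was 58.9% for the E14.5 tissues and 49.1% for the epithelium of both stages, and the median gene body coverage in E14.5 fibers was 3.28%. The median shift in place turned, to 0.575 points for the E14.5 tissues, -0.456 for epithelium between stages and -2.66 for fibers between stages. It also turned among regions common to all lists, to 1.07, -1.14 and -7.15 in the same order. With a q value under 0.001, the shift between the P0.5 tissues turned to 4.50 and that of fibers between stages was 8.96. Gene bodies alone held 117 regions. The difference in CAGAC matches from all regions turned from -1.50 points to 0.600 in 100 bases and 1.20 in 400 bases. Fewer peaks or a shorter locus lower the counts by construction, and the cause of the other changes was not tested. The remaining 76 of 91 values that answer a comparison stayed within their interval or within 1.5 times under the alternatives tried. Over these and the values of single promoters, 42 of 166 moved and 9 turned. All 36 promoter places moved when ranked among regions common to all lists, to between 13.0% and 84.6%. None of 39 moved when ranked by p value, but that ranking gave the same places as fold and so could not move them. The median shifts were likewise the same by p value. Both kinds of value are part of the counts above. Among regions common to all lists the order of the tissues held at all 9 promoters within each stage, while the order of the stages turned at 3 of 9 in epithelium (Acvr1, Bmpr2 and Smad5) and at 7 of 9 in fibers (all but Bmpr1a and Id1). Restricting the E14.5 counts of Bmp7, Bmpr1a and Smad4 and the P0.5 counts of Id1 was chosen after the data had been seen. With a q value under 0.001, Bmp7 had 23 regions in epithelium alone and 3 in fibers alone, Bmpr1a 5 and 20, and Smad4 5 and 11, while Id1 at P0.5 had 2 and 2. Over these restrictions 7 of 16 such counts moved by more than 1.5 times.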
